A study of Mus musculus with 5 samples.

Results

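Transcripts of 9 transcription factors of keratinocyte identity (Trp63, Tfap2a, Tfap2c, Klf5, Klf4, Grhl1, Grhl3, Ovol1 and Zfp750) were examined in RNA from sorted dermal group 2 innate lymphoid cells (dILC2s), skin lymphocytes that make type 2 cytokines. The factors were taken by gene symbol from the deposited counts, where all 9 were found among 47729 genes and all 9 passed the filter on low counts. The study sequenced freshly sorted dILC2s of wild-type (WT) and Rag1-/- mice without stimulation, to ask how loss of the recombinase RAG1 affects their transcripts. The design held 3 WT libraries (pools 5, 6 and 13) and 2 libraries labelled Rag1-/- (pools 2 and 7), each from many animals. By the study's methods the mice were female C57BL/6 of 8 to 13 weeks, with 10 mice in each WT pool and 9 in each Rag1-/- pool, whereas the labels gave 16 Rag1-/- mice in all. Rag1-/- mice lack T and B cells throughout the body, so that the genotype was not restricted to dILC2s. The gate described by the study was viable CD45+CD90hi cells negative for a shared CD2/CD3 signal. The labels gave the cell type of both Rag1-/- libraries as type 3 innate lymphoid cells, while the protocols of all 5 libraries named dILC2s.

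Keratinocytes are the epithelial cells of the epidermis, and each of these factors is known for its part in making or maturing them. Trp63 encodes p63, which sets up the stratified epithelial lineage and keeps its basal progenitor layer. The AP-2 factors Tfap2a and Tfap2c and the Krüppel-like factor Klf5 act in the same proliferating compartment, whereas Klf4, the Grainyhead-like factors Grhl1 and Grhl3, Ovol1 and Zfp750 act as cells leave the basal layer, stop dividing and build the skin barrier. None of the 9 is a defining factor of innate lymphoid cells, although Klf4 is also made by other cells of the skin.

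The libraries held 32939428 to 39477243 counts on genes, except Rag1-/- pool 2 with 8050562, the shallowest. The depth was ample for the factors, since the smallest count among them was 89 (Grhl3 in Rag1-/- pool 2) and 3 counts, taken as the smallest level that depth can show, equalled 0.373 CPM (counts scaled to the total of the library) there. Counts on Rag1 itself were 4, 0 and 5 in WT and 5 and 48 in the libraries labelled Rag1-/-, so that the targeted transcript was not lower there and every direction below rests on the labels. The dILC2 markers Gata3, Il7r, Il2ra, Icos and Thy1 were present in every library, but so were 13 genes of basal keratinocytes, whose summed level ranged from 6528 to 21957 CPM against 1685 to 9008 CPM for 20 ILC2 genes. An exact permutation test on the ranks of 1 gene in this design cannot give a two-sided p below 0.2. Genotypes were therefore compared with edgeR's quasi-likelihood test, which shares the spread across genes. Each p-value measures only the spread between pools.

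Of the 9 factors, 4 were called lower in the libraries labelled Rag1-/- (edgeR, adjusted p under 0.05 with a log2 fold change beyond 1 in either direction). The share called lower over all 19011 genes tested was 2.16%. The 4 were Trp63, Tfap2a, Tfap2c and Klf5, the factors of the basal compartment. On the CPM scale all 9 were lower in both Rag1-/- libraries than in any WT library, a pattern that 24% of the tested genes shared. With libraries scaled on basal and suprabasal epidermal genes together, 8 of 9 had a fitted value above 0 instead. With scaling on the basal genes alone, 8 of 9 stayed below 0. Their median log2 fold change over the 9 was then -0.32, beside 1.43 over all genes tested. Under either of these scalings 0 of 9 were called and 0 had an unadjusted p under 0.05. The share of all genes tested called lower was 0.0263% with both lists and 0.116% with the basal genes alone. In the fit that gave the 4 calls, the median log2 fold change of the factors was -1.66, beside 0.02 over all genes tested. The factors took 0.193% to 0.267% of all counts in the WT libraries, and 0.0790% and 0.104% in Rag1-/- pools 2 and 7. In bulk RNA, fewer cells of a type and less RNA per cell cannot be told apart.

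**Figure D1:**
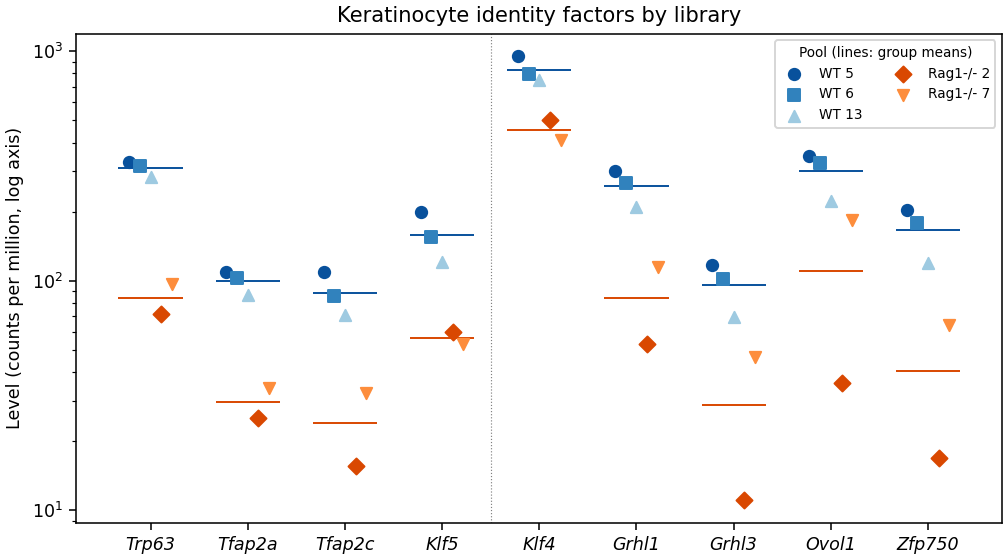
Level of each factor in CPM on a log axis, with 1 symbol per library and lines at the group means; basal factors stand left of the dotted line and differentiation factors right of it. On this scale every Rag1-/- symbol lies below every WT symbol of its gene, and the 2 Rag1-/- symbols lie farthest apart for Grhl3, Ovol1 and Zfp750. Scaled on basal and suprabasal genes together, 8 of 9 fitted differences change sign, whereas scaled on basal genes alone 8 of 9 stay below 0. Under either of these scalings 0 of 9 are called.

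Trp63 lies on chromosome 16 of GRCm38, from 25683763 to 25892102. Its level was 328, 315 and 284 CPM in WT pools 5, 6 and 13, and 71.5 and 97.0 CPM in Rag1-/- pools 2 and 7. The 3 WT libraries lay close together, and the highest Rag1-/- library was 2.92-fold below the lowest of them. The means were 309 ± 22.7 CPM (SD, n = 3) and 84.3 ± 18.02 CPM (SD, n = 2). The log2 fold change of Trp63 was -1.83 with a standard error of 0.239 (edgeR, adjusted p = 0.0306). The counts are per gene and do not separate the long p63 forms with a transactivation domain from the shorter forms that prevail in basal keratinocytes.

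Both AP-2 factors were called lower. Tfap2a (chromosome 13, 40715675 to 40733823) had 109, 103 and 86.5 CPM in the WT libraries and 25.2 and 34.02 CPM in Rag1-/- pools 2 and 7. It was called at a log2 fold change of -1.71 with a standard error of 0.239 (edgeR, adjusted p = 0.0306). Both Rag1-/- libraries were similar and far below WT. Tfap2c (chromosome 2, 172549593 to 172558622), which acts with Tfap2a in the surface ectoderm, had 109, 85.9 and 70.9 CPM in WT, and 15.5 and 32.3 CPM in Rag1-/- pools 2 and 7. The fold change of Tfap2c was -1.83 on the log2 scale with a standard error of 0.372 (edgeR, adjusted p = 0.0384), and pool 2 was the lower of the Rag1-/- libraries. An antisense gene, Gm26688, shares 380 exon bases with Tfap2a, 7.75% of the Tfap2a exons, and the counts of Gm26688 were 2% of those of Tfap2a. How reads in the shared bases were counted is not known.

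Klf5 (chromosome 14, 99298691 to 99313405), a factor of proliferating epithelial cells, had 199, 155 and 121 CPM in the WT libraries. In Rag1-/- pools 2 and 7 it had 59.7 and 53.0 CPM. The Rag1-/- libraries nearly coincided, while WT pool 5 was 1.64-fold above WT pool 13. Klf5 was called at a log2 fold change of -1.46 with a standard error of 0.258 (edgeR, adjusted p = 0.0319).

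Klf4 (chromosome 4, 55527143 to 55532466), which drives barrier formation in the upper epidermis, had the highest level of the 9 and the log2 fold change nearest to 0, although its difference in CPM was the largest. It had 955, 792 and 746 CPM in WT pools 5, 6 and 13, and 501 and 410 CPM in Rag1-/- pools 2 and 7. The groups did not overlap, and pool 2 was the higher of the Rag1-/- libraries, as for Klf5 and for no other factor. The means were 831 ± 110.0 CPM (SD, n = 3) and 456 ± 64.1 CPM (SD, n = 2), and the log2 fold change of -0.84 with a standard error of 0.231 missed both thresholds (edgeR, adjusted p = 0.0762).

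Grhl1 (chromosome 12, 24572287 to 24617391), a regulator of desmosomal cadherins, had 300.3, 266 and 209 CPM in WT. In Rag1-/- pools 2 and 7 it had 53.2 and 115 CPM. It was just short of a call, at -1.57 on the log2 scale with a standard error of 0.375 (edgeR, adjusted p = 0.0551). Grhl3 (chromosome 4, 135541888 to 135573630), required for barrier acquisition and wound closure, had 118, 102 and 69.5 CPM in WT, and 11.1 and 46.7 CPM in Rag1-/- pools 2 and 7. Grhl3 was not called, at -1.66 on the log2 scale with a standard error of 0.577 (edgeR, adjusted p = 0.126). For both genes pool 2 was the lower Rag1-/- library, by 2.17-fold for Grhl1 and 4.22-fold for Grhl3.

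Ovol1 (chromosome 19, 5549137 to 5560575), a zinc finger repressor that restrains proliferation of epidermal progenitors, had 348, 326 and 224 CPM in WT, and 35.8 and 184 CPM in Rag1-/- pools 2 and 7. Pool 7 lay only 1.22-fold below the lowest WT library, while pool 2 lay 8.37-fold below the WT mean. The log2 fold change of -1.39 had a 95% interval from -2.88 to 0.10 (adjusted p = 0.216, edgeR), so a difference between genotypes was not resolved. Zfp750 (chromosome 11, 121510978 to 121519333), which promotes terminal differentiation downstream of p63, had 203, 178 and 119 CPM in WT, and 16.9 and 64.2 CPM in Rag1-/- pools 2 and 7. Its log2 fold change of -1.97 was the farthest from 0 of the 9, but with a standard error of 0.562 it did not pass (adjusted p = 0.0820, edgeR). Zfp750 lies within Tbcd on the opposite strand and shares 0 exon bases with it; Tbcd had a log2 fold change of 0.29 (adjusted p = 0.437, edgeR).

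The 5 differentiation factors thus gave 0 calls with edgeR, although 4 of them had an unadjusted p under 0.05, as did 8 of all 9 factors and 5022 of the 19011 genes tested. DESeq2, the tool named by the study, called 7 of 9 lower, adding Grhl1, Grhl3 and Zfp750, against 7.65% of the genes it tested. Their median log2 fold change was -1.57 beside -1.77 for the 4 basal factors, and the difference between the roles was not tested. With any WT library or Rag1-/- pool 2 left out, edgeR called 0 of 9, with 7 or 8 of 9 at an unadjusted p under 0.05, but it then called 0 of all genes tested as well. The median log2 fold change of the factors in those fits was -1.31 to -1.81. Without Rag1-/- pool 7 edgeR called 8 of 9 lower, against 7.98% of all genes tested there.

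**Figure D2:**
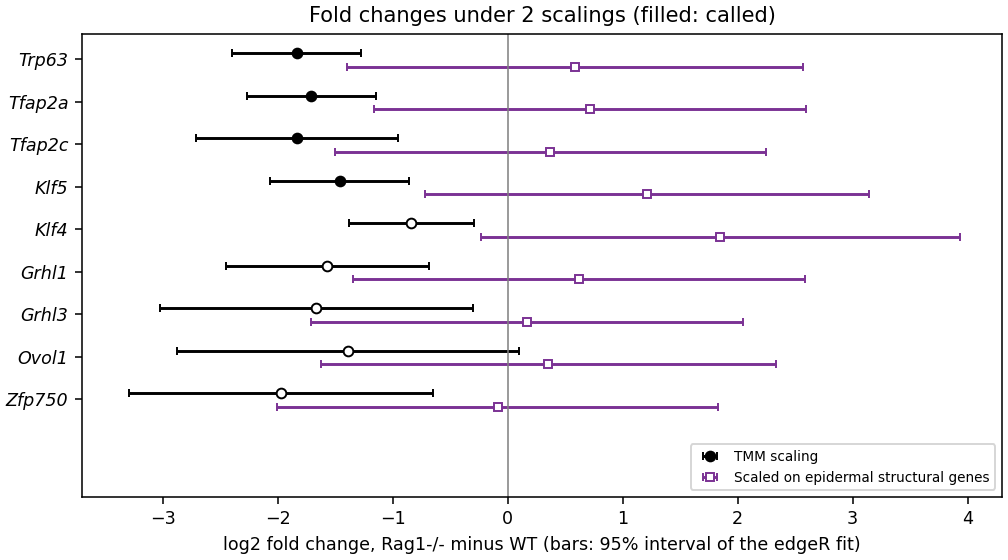
log2 fold change of each factor, Rag1-/- minus WT, with the 95% interval of the edgeR fit, for TMM scaling (black circles, filled where called) and for scaling on 13 basal and 20 suprabasal genes (purple squares). Under TMM all 9 estimates lie below 0 and 4 are called; under the epidermal scaling 8 of 9 lie above 0 and every interval includes 0.

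Compared per length, Klf4 stood above the other factors in every library. In CPM per kilobase of exon, the WT levels were 273 ± 36.1 for Klf4, 85.8 ± 19.1 for Ovol1, 51.6 ± 13.3 for Zfp750, 46.6 ± 8.32 for Grhl1 and 36.8 ± 2.71 for Trp63 (SD, n = 3). Grhl3 with 34.5 ± 8.79, Klf5 with 30.4 ± 7.499, Tfap2c with 24.1 ± 5.28 and Tfap2a with 20.3 ± 2.40 followed. Neighbours in this order overlapped between WT libraries from Zfp750 downward, and only Klf4 and Ovol1 stood clear of the factor next below. In the libraries labelled Rag1-/- the per-length means ran from 149 for Klf4 to 6.04 for Tfap2a, and Klf4 alone stood clear of the rest.

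On the same scale, Gata3, the factor that defines ILC2s, had 62.6 ± 15.8 in WT (SD, n = 3) and 117 ± 33.5 in the libraries labelled Rag1-/- (SD, n = 2). The WT level of Klf4 was thus above that of Gata3 in the same libraries, and that of Ovol1 was above Gata3 in each WT library, with 99.8, 93.6 and 64.1 in WT pools 5, 6 and 13 beside 49.97, 80.3 and 57.5 for Gata3. Rora, another ILC2 factor, had 70.5 ± 20.4 and overlapped Ovol1. The log2 fold change of Gata3 was 0.92 (edgeR, adjusted p = 0.0998), missing both thresholds, and turned to -0.99 when libraries were scaled on leukocyte genes.

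**Figure D3:**
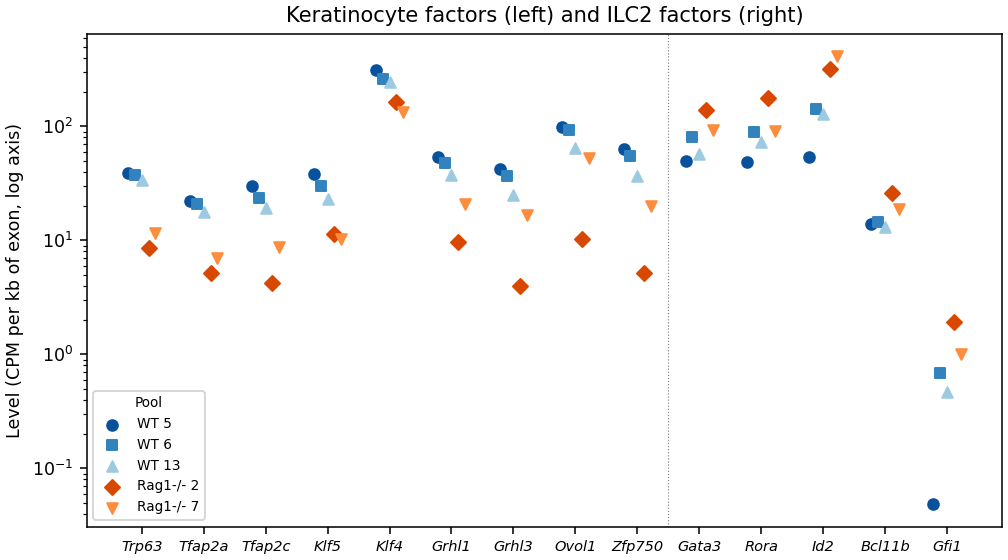
Level per length, in CPM per kilobase of exon on a log axis, of the 9 keratinocyte factors (left) and of the 5 transcription factors of the ILC2 list (right), with 1 symbol per library. On this scale the Rag1-/- symbols lie below WT on the left and above WT on the right, and these directions depend on the scaling. On the left 8 of 9 change sign when scaled on basal and suprabasal genes together, but 8 of 9 stay below 0 when scaled on basal genes alone. Under either of these scalings 0 of 9 are called. Gata3 changes sign when scaled on leukocyte genes.

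The letters of promoters are shown for 3 differentiation factors with a window in the RefSeq table (GRCm38.p6): the 250 bases upstream of the start site, 5′ to 3′ on the strand of the gene. Capitals mark letters matching an AP-2, Krüppel-like or ZNF750 motif, the binding letters of proteins encoded by other members of the set. The Klf4 stretch is chr4:55532476-55532725 (minus strand), the Grhl3 stretch chr4:135573633-135573882 (minus strand) and the Grhl1 stretch chr12:24572037-24572286 (plus strand).
Klf4: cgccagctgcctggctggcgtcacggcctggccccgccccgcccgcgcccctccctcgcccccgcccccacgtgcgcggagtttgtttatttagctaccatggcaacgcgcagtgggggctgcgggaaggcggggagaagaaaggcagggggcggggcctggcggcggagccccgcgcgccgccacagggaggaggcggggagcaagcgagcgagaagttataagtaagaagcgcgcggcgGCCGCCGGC
Grhl3: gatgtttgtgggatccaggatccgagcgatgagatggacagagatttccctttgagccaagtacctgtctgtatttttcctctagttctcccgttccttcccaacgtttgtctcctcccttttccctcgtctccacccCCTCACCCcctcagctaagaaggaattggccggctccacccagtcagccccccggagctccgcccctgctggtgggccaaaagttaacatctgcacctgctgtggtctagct
Grhl1: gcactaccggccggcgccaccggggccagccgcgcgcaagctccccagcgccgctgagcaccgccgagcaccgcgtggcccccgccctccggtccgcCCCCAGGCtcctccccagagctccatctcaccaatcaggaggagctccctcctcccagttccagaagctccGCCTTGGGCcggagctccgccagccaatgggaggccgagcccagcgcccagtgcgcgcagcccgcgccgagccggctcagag

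Windows of 300 bases, reaching 50 bases past the start, were found for 4 of the 9 factors (Klf4, Grhl3, Grhl1 and Tfap2a) and were searched on both strands. The AP-2 letters GCCNNNGGC began at position -9 of Klf4 and -82 of Grhl1, and 16.6% of 32851 RefSeq windows held them. The Krüppel-like letters CCNCACCC began at -112 of Grhl3, with 16.6% of windows. The ZNF750 letters CCNNAGGC, whose name is that of the human counterpart of Zfp750, began at -153 and -82 of Grhl1, the second match overlapping the AP-2 match, with 24.1% of windows. The same letters began at -69 of a second Grhl1 window (chr12:24580469-24580768). The Tfap2a windows, which are not shown, held no AP-2, Krüppel-like or ZNF750 letters. Letters for Grainyhead (AACCGGTT, in 0.146% of windows), OVOL (CCGTTA, 2.76%) and the TATA box (TATAAA, 13.6%) were in none of the 6 windows of these 4 genes. The windows shown for Klf4 and Grhl1 were rich in G and C, at 74.3% and 75.3% against a median of 52.7% over all windows, and that of Grhl3 held 58.3%. A GC box (GGGCGG, in 35.7% of windows) was in 5 of the 6. A match is a description of letters and does not show binding.

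Within the group, the profile over the 5 libraries was most like the mean of the 9 in Grhl1 and least like it in Klf4. The root mean square distance of the centred log2 CPM from the mean profile was 0.048 for Grhl1, 0.110 for Tfap2c, 0.190 for Tfap2a and 0.215 for Trp63. It was 0.376 for Grhl3, 0.401 for Klf5, 0.405 for Zfp750, 0.439 for Ovol1 and 0.603 for Klf4. The mean profile stood at 0.93, 0.76 and 0.38 in WT pools 5, 6 and 13, and at -1.56 and -0.51 in Rag1-/- pools 2 and 7, on the log2 scale about its own mean, so WT pool 13 was the lowest WT library and pool 2 the lowest of all. All 9 factors were highest in WT pool 5 and lowest among WT libraries in pool 13.

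Among 11621 genes outside the set with a mean of at least 5 CPM, the 8 whose profiles were nearest to that mean were Ahnak2 (distance 0.037), Zfp185 (0.042), Map3k9 (0.045), Lpin3 (0.054), BC016579 (0.073), Nipal1 (0.074), Slc6a14 (0.079) and Serpinb8 (0.080). Ahnak2 had 252, 235 and 184 CPM in WT and 45.3 and 91.4 CPM in Rag1-/- pools 2 and 7. Map3k9 encodes a kinase upstream of JNK, Slc6a14 an amino acid transporter and Serpinb8 a serine protease inhibitor. The likeness is over 5 libraries only and includes the difference between genotypes.

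Ratios between factors within a library do not depend on depth or scaling. There were 2.91, 2.51 and 2.63 Klf4 counts per Trp63 count in the WT libraries, and 7.002 and 4.23 in Rag1-/- pools 2 and 7. Klf4 was thus higher relative to Trp63 in both Rag1-/- libraries than in any WT library. Klf5 relative to Klf4 was lower there, with 0.208, 0.196 and 0.163 in WT and 0.119 and 0.129 in Rag1-/- pools 2 and 7. Ovol1 relative to Trp63 split the Rag1-/- libraries, with 1.06, 1.04 and 0.788 in WT, 0.50 in pool 2 and 1.89 in pool 7. The same split stood in Zfp750 relative to Trp63, with 0.620, 0.565 and 0.420 in WT, 0.236 in pool 2 and 0.662 in pool 7. Tfap2c relative to Tfap2a (1.00, 0.834 and 0.820 in WT, 0.616 and 0.951 in pools 2 and 7) and Grhl3 relative to Grhl1 (0.392, 0.383 and 0.333 in WT, 0.208 and 0.405) were lowest in pool 2 and in the range of WT or above it in pool 7.

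The CPM ratio of pool 7 over pool 2 was 0.887 for Klf5, 1.35 for Tfap2a, 1.36 for Trp63 and 2.08 for Tfap2c. It was 0.819 for Klf4, 2.17 for Grhl1, 3.80 for Zfp750, 4.22 for Grhl3 and 5.13 for Ovol1. Among structural genes of the epidermis, the 13 basal genes had a median ratio of 1.41, from 0.547 (Dst) to 2.18 (Krt15). The 20 suprabasal genes had a median ratio of 8.35, and 18 of them exceeded 2. Krt10, the main keratin of the suprabasal layers, had 11278, 7310.3 and 5266 CPM in WT, 475 CPM in pool 2 and 4140 CPM in pool 7. Flg2, a late barrier protein, had 1 count in pool 2 and 2300 counts in pool 7. Both libraries carry the same genotype label, and they differ in depth and in the animals pooled. With all libraries thinned to the depth of pool 2, the factors had log2 fold changes from -1.99 to -0.84 between genotypes (median -1.77). Without thinning they ran from -1.97 to -0.84 (median -1.66). Both ranges compare genotypes and do not address the ratio of pool 7 over pool 2. The cause of the difference between pools 2 and 7 was not tested.

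**Figure D4:**
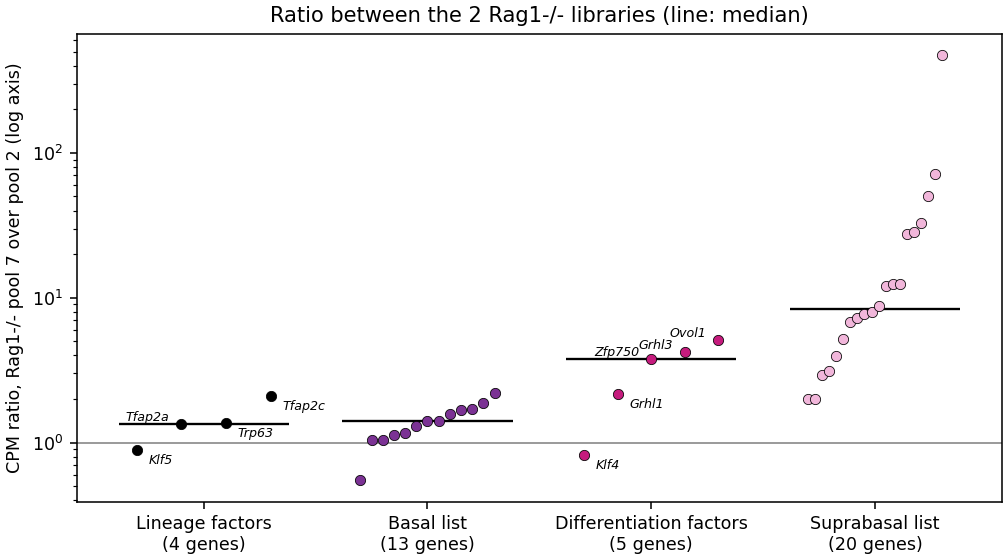
Ratio of the CPM level in Rag1-/- pool 7 to that in Rag1-/- pool 2, on a log axis, for the basal (lineage) factors, 13 basal structural genes, the differentiation factors and 20 suprabasal structural genes, with 1 point per gene and a line at each median. The medians are 1.35, 1.41, 3.80 and 8.35, and Klf4 lies below 1 apart from the other differentiation factors.

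Other genes of the same families gave calls in both directions. Of 22 family members outside the set, 19 were tested, 3 were called lower and 1 higher, with a median log2 fold change of -0.33. Grhl2, the epithelial Grainyhead-like factor of junctions, had 54.8, 46.5 and 47.9 CPM in WT and 9.69 and 15.3 CPM in Rag1-/- pools 2 and 7 (log2 fold change -1.93, adjusted p = 0.0306, edgeR). Tfap2b had 49.2, 50.8 and 54.6 CPM in WT and 11.3 and 18.3 CPM in Rag1-/- pools 2 and 7 (-1.74, adjusted p = 0.0306, edgeR). Klf3, the third gene called lower, had a log2 fold change of -1.22 (adjusted p = 0.0306, edgeR).

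Ovol2, which keeps epithelial cells from turning mesenchymal, was the relative called higher. It had 8.25, 8.64 and 7.29 CPM in WT and 16.4 and 21.6 CPM in Rag1-/- pools 2 and 7, with a log2 fold change of 1.28 (adjusted p = 0.0369, edgeR) that turned to -0.69 when scaled on leukocyte genes. The most abundant relatives, Klf6 (log2 fold change -0.33), Klf10 (-0.08) and Klf13 (0.36), were not called. The p63 relatives Trp53 (0.18) and Trp73 (-1.31, adjusted p = 0.0509, edgeR) were not called either. Klf17 and Tfap2d had 0 counts in every library.

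Of 22 further transcription factors of the epidermis and hair follicle, 4 were called lower, against 2.16% of all genes tested. Their median log2 fold change was -1.16. Casz1 had 331, 279 and 199 CPM in WT and 54.4 and 95.1 CPM in Rag1-/- pools 2 and 7 (log2 fold change -1.81, adjusted p = 0.0361, edgeR). The other 3 were Ehf (-1.44), an epithelial ETS factor, Sox9 (-1.23), a hair follicle factor, and Prdm1 (-1.23), which is also made in lymphocytes. Hr, a co-repressor of the hair cycle, was not called (-0.53). A further 5 had log2 fold changes above 0 and were not called, Mycn (1.56), Satb1 (1.07), Hopx (0.98), Runx1 (0.97) and Tcf7l1 (0.78). Bulk RNA does not show which cells made these transcripts, so the 5 need not reflect keratinocytes. Of 16 genes known as p63 targets in keratinocytes, 7 were called lower, against 2.16% of all genes tested, with a median of -1.43. In CPM 16 of 16 were lower without overlap, against 24% of all genes tested. They include Col17a1, with 3358, 2879 and 2480.2 CPM in WT and 910.0 and 1024 CPM in Rag1-/- pools 2 and 7 (log2 fold change -1.55, adjusted p = 0.0309, edgeR), and Itga6 (-1.60), both anchors of basal cells to the basement membrane. The lists of p63 targets and basal genes share members and are no independent evidence.

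Markers of whole cell types moved with the factors in the same libraries. The summed level of the 9 factors was 2669.9, 2323 and 1929 CPM in WT pools 5, 6 and 13, and 789.9 and 1036 CPM in Rag1-/- pools 2 and 7. The 13 basal genes summed to 21957, 19609.9 and 19011 CPM in WT and to 6528 and 9481 CPM in the Rag1-/- libraries, with 8 of 13 called lower. The 20 suprabasal genes summed to 30743, 20703 and 15967 CPM in WT and to 1587 and 11431 CPM, with 3 of 20 called lower. Beside both counts, 2.16% of all genes tested were called lower. Every gene of both lists had counts in every library, but Flg and Flg2 had only 1 count each in Rag1-/- pool 2. That is below the 3 counts taken as the smallest level the depth can show.

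Leukocyte markers were higher in the Rag1-/- libraries. The 30 leukocyte genes summed to 1334, 3014 and 3151 CPM in WT and to 9691 and 8638 CPM in Rag1-/- pools 2 and 7, with 22 of 30 called higher, against 3.57% of all genes tested. Ptprc, which encodes the sorted marker CD45, had 122, 421 and 341 CPM in WT and 1177 and 623 CPM in Rag1-/- pools 2 and 7, and was not called (1.63, adjusted p = 0.103, edgeR). The 20 ILC2 genes summed to 1685 to 3386 CPM in WT and to 9008 and 6587 CPM in Rag1-/- pools 2 and 7, with 7 of 20 called higher. WT pool 5 had the highest level of every keratinocyte factor and the lowest of both lists. The sums of fibroblast genes overlapped between the groups, from 7504 to 13412 CPM in WT and 8130 and 7976 CPM in the Rag1-/- libraries. Melanocyte genes summed to 58.1 to 83.8 CPM in WT and to 52.0 and 46.9 CPM in the Rag1-/- libraries. Those melanocyte sums did not overlap, and 0 of 8 genes were called. Gene by gene, 2 of 10 fibroblast and 2 of 8 melanocyte genes were lower without overlap, beside 24% of all genes tested. Mast cell genes summed to 180 to 306 CPM in WT and to 615 and 453 CPM in Rag1-/- pools 2 and 7. That sum was carried by Kit, a receptor also made by other cells (52.9 to 179 CPM in WT, 534 and 336 CPM, not called), since the other 7 genes summed to 126 to 154 CPM in WT and to 81.9 and 117 CPM, and 0 of 8 were called. T cell genes summed to 69.3 to 135 CPM in WT and to 390 and 331 CPM in Rag1-/- pools 2 and 7. Most of that sum came from Trbc1, Trbc2 and Cd3g in the Rag1-/- libraries. The other 9 genes summed to 40.4 to 57.8 CPM in WT and to 87.2 and 66.8 CPM in Rag1-/- pools 2 and 7. Of the 11 T cell genes tested, 4 were called higher (Cd3g, Cd247, Trac and Trbc2). Trbc1 (log2 fold change 2.16) was not called, nor were Cd3e (0.32), Cd3d (0.38), Cd4 (0.75), Trdc (0.18), Tcrg-C1 (0.01) and Cd5 (-1.48). Endothelial genes had 389 to 702 CPM in WT and 210 and 422 CPM. Among these markers 2 had a library at 0 counts, Cd8a (WT pool 6 and Rag1-/- pool 2) and the melanocyte gene Slc45a2 (WT pool 6). The part of any other cell type in the levels of the 9 factors was not tested.

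**Figure D5:**
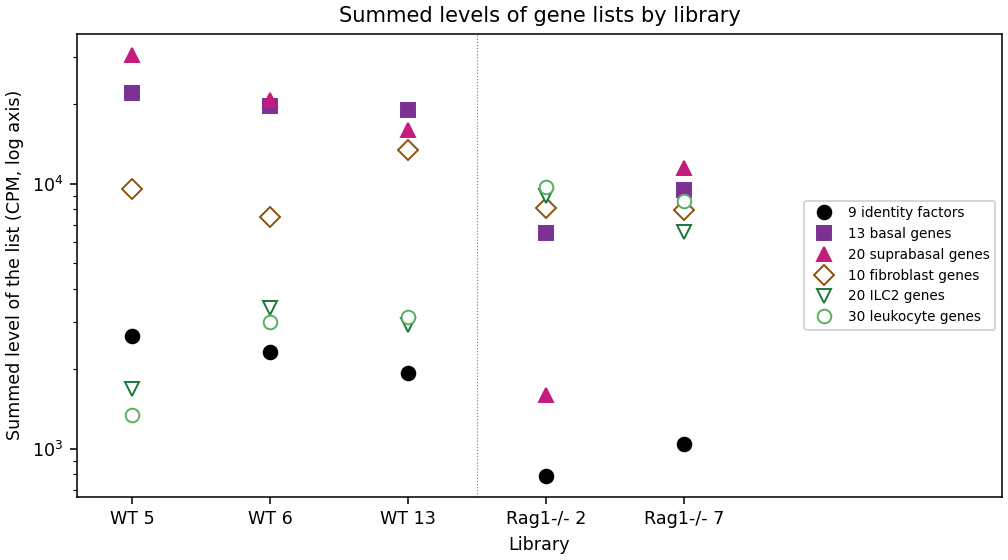
Summed level of each gene list in each library, in CPM on a log axis; filled symbols are keratinocyte lists, open symbols fibroblast, ILC2 and leukocyte lists. The 9 factors sum to between 1929 and 2670 CPM in WT and to 790 and 1036 CPM in the Rag1-/- libraries; on the CPM scale the basal sums are also lower and the leukocyte sums higher in the Rag1-/- libraries, directions that depend on the scaling.

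Set against the basal keratinocyte genes of the same library, the summed counts of the factors overlapped between the groups. The 9 factors together had 122, 118 and 101 counts per 1000 counts on the 13 basal genes in WT pools 5, 6 and 13, and 121 and 109 in Rag1-/- pools 2 and 7. In pool 2, Klf4 gave 76.7 of the 121. The other 8 factors summed to 62.3 to 78.1 per 1000 in WT, 44.3 in pool 2 and 66.04 in pool 7, so that pool 2 was below WT and pool 7 in the WT range. Trp63 alone had 14.9, 16.1 and 14.9 per 1000 in WT, and 10.96 and 10.2 in Rag1-/- pools 2 and 7. Tfap2a (4.55 to 5.25 in WT, 3.86 and 3.59 in the Rag1-/- libraries) and Tfap2c (3.73 to 4.98 in WT, 2.38 and 3.41) were also below WT on this scale. Per 1000 counts on the suprabasal genes pool 2 stood the other way, with 45.1 for Trp63 against 10.7 to 17.8 in WT, 15.9 for Tfap2a against 3.56 to 5.42, and 9.79 for Tfap2c against 3.56 to 4.44. Pool 7 stayed below WT there, with 8.49 for Trp63, 2.98 for Tfap2a and 2.83 for Tfap2c. Per 1000 basal counts the other 6 overlapped, among them Klf4 with 39.2 to 43.5 in WT, 76.7 in pool 2 and 43.3 in pool 7, and Ovol1 with 11.8 to 16.6 in WT, 5.48 in pool 2 and 19.4 in pool 7. The basal counts rest most on Krt5 and Krt14, with 6091 and 6118 of 21957 CPM in WT pool 5. In Rag1-/- pool 7 these 2 genes had 2731 and 3049 of 9481 CPM. Their log2 fold changes were -1.26 and -1.15. Over the basal list the fold changes ran from -1.87 (Dsg3) to -0.67 (Dst), with a median of -1.38. Positions below WT on the basal scale therefore depend on the basal genes used. These ratios are a description within each library and were not tested.

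When edgeR was fitted with libraries scaled on the basal and suprabasal genes instead, 0 of 9 factors were called and 0 had an unadjusted p under 0.05, while over all genes tested 0.0263% were called lower and 62.1% higher. The median log2 fold change was 0.59, from -0.08 for Zfp750 to 1.85 for Klf4, beside 2.55 over all genes tested. The intervals were wide, from -1.39 to 2.57 for Trp63 and from -0.23 to 3.93 for Klf4, so neither a change nor its absence was shown relative to these genes. The signs depended on the scale. With the basal genes alone 8 of 9 factors were below 0, and with the suprabasal genes alone 0 of 9 were. With either list alone 0 of 9 were called and 0 had an unadjusted p under 0.05. The median was -0.32 with the basal genes alone and 1.43 with the suprabasal genes alone. It was -0.25 without Rag1-/- pool 2, where 6 of 9 were below 0. Without Rag1-/- pool 7 it was 1.08, with 5 of 9 called higher, against 82.3% of all genes tested there.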

How the data were processed

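The data are RNA-seq of sorted dILC2s in 5 libraries, 3 from WT and 2 labelled Rag1-/-. Per the labels, the authors made unstimulated polyA libraries with a TruSeq v2 kit, aligned single-end reads to GRCm38 with STAR 2.5 and counted them per gene with featureCounts 1.5.0-p1. The deposited counts are raw, with a coordinate for each gene, and the labels and the study's methods name different annotation releases on GRCm38. The labels also list GRCm39 among the builds, but the deposited start and end of 5 of the 9 factors equal those of GENCODE M21 on GRCm38 and the others lie close by. A second table deposited by the authors holds a normalized signal for each symbol; its 136 repeated symbols were left out and it served only as an alternative. Whether counting used strand is not given in the sources used here.

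Counts were filtered (filterByExpr), scaled with TMM and compared with the quasi-likelihood test of edgeR 4.0.16 in R 4.3.3, genotype being the only term as in the study's design. Genes were called at a Benjamini-Hochberg adjusted p under 0.05 with a log2 fold change beyond 1 in either direction. CPM are taken over all counts on genes. Per-length levels used the union of exons in GENCODE M21, on the same build. The second scaling used the mean of log2(count + 0.5) over the basal and suprabasal lists. Profiles used log2 CPM with a prior count of 2. Alternatives were DESeq2 1.42.0, limma 3.58.1 on log2(signal + 1), RLE scaling, library size alone, scaling on leukocyte genes, dropping the filter, a minimum of 10 counts in each library, thinning to 8050562 counts and each library left out in turn. The test was checked on simulated counts. The genes named outside the 9 factors are those called with the smallest p and those with the highest level in each list, the 8 nearest profiles, and Rag1, Ptprc and Gata3. Dst, Krt15, Flg, Flg2, Kit, the T cell genes and the 5 epidermal factors above 0 were named after their values were seen, and the ratios to basal counts were added then too. The factors and all lists were chosen with earlier results of these data known. Intervals and floors cover counting or fitted error only. No library was left out; 1 gene of the lists is not reported here.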

Additional observations from a re-analysis of the deposited data

How the results depend on the processing

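No paired analysis was possible because the groups share no replicate numbers. Without a Rag1-/- pool, the lone library was assumed to vary like the WT libraries. The genes called numbered 1090, with 62.3% higher. They numbered 2453 with DESeq2 (48.8% higher), 2645 with no filter (43.7% higher), 12925 with scaling on leukocyte genes (0.170% higher) and 11818 with scaling on basal and suprabasal genes (99.96% higher), scalings that move the median of all genes to -1.94 and 2.55. With 1 library left out they ranged from 0 to 2409, the latter without Rag1-/- pool 7; edgeR called 0 without any WT pool, with 3521 to 3874 at an unadjusted p under 0.05, and 0 without Rag1-/- pool 2, with 5200. The factors called lower numbered 7 with DESeq2 (7.65% of all genes tested), 8 with no filter (4.98%) and 9 with scaling on leukocyte genes (67.9%). They numbered 0 with scaling on basal and suprabasal genes (0.0263%) and 4 or 5 with the other settings (2.26% to 4.54%). With any WT library left out 0 factors were called lower, as were 0 of all genes tested. The median log2 fold change of the factors was -3.69 with scaling on leukocyte genes and 0.59 with scaling on basal and suprabasal genes, and -2.34 to -1.31 with 1 library left out. Relative to basal and suprabasal genes the median was -0.32 with basal genes alone, 1.43 with suprabasal genes alone, and -0.25 to 1.08 with 1 library left out, with 0 to 5 factors called higher; the 5 were without Rag1-/- pool 7, where 82.3% of all genes were called higher. The scaling on basal and suprabasal genes turned Trp63 to 0.59, Klf4 to 1.85, Klf5 to 1.21, Grhl1 to 0.62, Grhl3 to 0.17, Tfap2a to 0.72, Tfap2c to 0.37, Ovol1 to 0.35, Grhl2 to 0.38, Tfap2b to 0.54, Klf3 to 1.32, Klf6 to 2.31, Klf10 to 2.33, Casz1 to 0.51, Sox9 to 1.10, Ehf to 0.94, Prdm1 to 1.11 and Hr to 1.90, each on the log2 scale. Scaling on leukocyte genes turned Ovol2 to -0.69, Klf13 to -1.60, Ptprc to -0.13 and Gata3 to -0.99. Klf10 ranged from -0.36 to 0.12 with 1 library left out and turned to 0.03 without WT pool 13 and 0.12 without Rag1-/- pool 2. Each scaling made the mean of log2(count + 0.5) over its own list equal between libraries by construction, and did not set the fitted fold changes of its genes to 0. The cause of the moves of other genes was not tested. Grhl1 passed with library size alone, at least 10 counts, thinned libraries, limma on the signal, DESeq2 and no filter, as well as with scaling on leukocyte genes and without Rag1-/- pool 7.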
